A study of Mus musculus with 9 samples.

Results

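Lysyl oxidases and collagen lysyl hydroxylases are the enzymes that modify lysine residues of collagen and elastin, and their transcript levels were measured in mouse 3T3-L1 cells that were differentiated with or without lysine in the medium. The 8 genes were chosen by name, as the mouse members of both families, out of 54532 genes in the deposited tables: Lox, Loxl1, Loxl2, Loxl3 and Loxl4 (lysyl oxidases) and Plod1, Plod2 and Plod3 (lysyl hydroxylases). All 8 were measured, and all 8 had counts in each of 9 libraries. 3T3-L1 is an established mouse fibroblast line that is used as a model of preadipocytes. All groups came from this line and from cells held at confluence for 3 days, and poly A RNA was sequenced in 3 libraries per group. The Undifferentiated group received no differentiation cocktail, and it was grown in DMEM with bovine calf serum. The Differentiated group received a cocktail of insulin at 10 μg/mL, rosiglitazone and dexamethasone at 1 μM each and the phosphodiesterase inhibitor IBMX at 0.5 mM in DMEM lacking lysine and arginine, to which both amino acids and fetal bovine serum were added. The Lysfree group received the same cocktail and medium without the added lysine. The base medium and serum therefore differed between the Undifferentiated group and the other groups, and this cannot be told apart from the cocktail. RNA of the cocktail-treated groups was collected at the end of the differentiation period, which lasted 3 days in other cultures of the study. The harvest time of the Undifferentiated cells relative to it is not given in the sources used here, so time in culture cannot be told apart from the cocktail either. No label says that the 3 libraries of a group came from separate cultures, so p-values measure only the spread between libraries, which may be technical.

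Fibrillar collagens and elastin are held together by covalent cross-links that start from lysine side chains. Inside the endoplasmic reticulum, lysyl hydroxylases add a hydroxyl group to selected lysines of procollagen, with iron, 2-oxoglutarate and ascorbate as cofactors. Outside the cell, lysyl oxidases, which hold copper, oxidise lysine and hydroxylysine to reactive aldehydes that join neighbouring chains. Preadipocytes are embedded in a collagen matrix that is remodelled when they become adipocytes.

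The lysyl oxidases share a catalytic region at the end of the protein, and the copper site inside it is shown here. The reason is that Loxl2 and Loxl4, with the closest sites of those printed, had changes of opposite sign in each comparison. Loxl2 was close to the detection limit, with 4 to 21 counts per library in Lysfree vs Undifferentiated. Each line gives 33 coding bases of the GENCODE vM21 annotation on the mm10 genome, 5′ to 3′, and the capitals mark the codons of the 3 histidines that bind copper.
Loxl1: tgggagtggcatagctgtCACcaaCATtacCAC
Loxl2: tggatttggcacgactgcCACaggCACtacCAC
Loxl3: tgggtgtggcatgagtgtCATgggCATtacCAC
Loxl4: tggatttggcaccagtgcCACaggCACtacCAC
Each stretch crosses an exon junction. The Loxl1 stretch lies on the minus strand at chr9:58294359-58294381 (exon 3) and chr9:58293720-58293729 (exon 4). The Loxl2 stretch lies on the plus strand at chr14:69682316-69682338 (exon 10) and chr14:69689028-69689037 (exon 11). The Loxl3 stretch lies on the plus strand at chr6:83049995-83050017 (exon 10) and chr6:83050116-83050125 (exon 11). The Loxl4 stretch lies on the minus strand at chr19:42599877-42599899 (exon 11) and chr19:42598807-42598816 (exon 12). Loxl2 and Loxl4 shared 31 of the 33 bases, whereas Loxl1 shared 22 with Loxl2, 25 with Loxl3 and 21 with Loxl4, and Loxl3 shared 25 with either of Loxl2 and Loxl4.

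The families also divide by length and by sequence. The coding sequence of Loxl1 gives 607 residues, and Loxl2, Loxl3 and Loxl4 give 776, 754 and 758. Loxl2, Loxl3 and Loxl4 were 56.3% to 56.6% identical to each other over aligned residues. Over the last 200 residues, Loxl2 was closer to Loxl3 (70.2%) than to Loxl4 (66.5%). The hydroxylases, of 728 residues (Plod1), 758 residues (Plod2) and 741 residues (Plod3), were 58.3% to 60.7% identical to each other. Lox, of 411 residues, was closest to Loxl1, with 57.5% identity over the whole protein and 75% over the last 200 residues, which hold the copper site.

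The enzymes that act on lysine differed in how much lysine they hold themselves. Lox had 5 lysine codons among 411, or 1.22%, and Loxl1 had 9 among 607, or 1.48%. Across 21479 protein-coding genes the median was 5.36% (quartiles 3.83% and 7.13%), and 1.99% of genes had a lower share than Lox. The other members lay between 3.45% (Loxl3) and 6.46% (Plod2). These shares describe the annotation and were not used in any comparison of levels.

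The libraries held 15880144 to 21806693 counts in total (median 17784064). Library Lysfree 1 stood apart: 274 of 10964 genes (2.5%) differed over 2-fold from the mean of the other 2 Lysfree libraries, against 5 to 16 genes for each of the other libraries. The members' values in Lysfree cells are therefore also given without it. The 8 adipocyte markers (Adipoq, Fabp4, Plin1, Cebpa, Pparg, Cd36, Lpl and Cidec) summed to between 6890 and 7245 FPKM in Differentiated libraries, 314 to 395 in Undifferentiated libraries and 292 to 408 in Lysfree libraries, all 8 being above 3 counts in every library. The near-equal sums of the Undifferentiated and Lysfree libraries cover moves in both directions, with 2 markers higher and 5 lower in Lysfree vs Undifferentiated (median log2 fold change −0.76), such as Adipoq at 4.18 against 57.8 FPKM and Cd36 at 72.7 against 16.6 FPKM. The 6 preadipocyte fibroblast markers (Pdgfra, Pdgfrb, Thy1, Dlk1, Vim and S100a4) summed to between 1064 and 1087 FPKM in Undifferentiated, 456 to 473 in Differentiated and 802 to 889 in Lysfree libraries. Of these, 1 was higher and 4 were lower in Lysfree vs Undifferentiated (median −0.72). Vim, which made up most of the Lysfree sum, stood at 607 against 602 FPKM and did not pass, and Dlk1 stood at 65.2 against 270 FPKM. Macrophage, endothelial and epithelial markers summed to at most 1.72 FPKM in any library, with the macrophage markers Adgre1 and Itgam at 0 throughout. The marker sums moved with the groups, and their part in the results for the enzymes was not tested. In RNA from a whole culture, fewer cells of a type and less RNA per cell cannot be told apart.

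The first comparison asked what differentiation did to these enzymes. Lox fell 23.8-fold, Loxl3 fell 7.15-fold, Loxl4 fell 5.11-fold and Loxl1 fell 2.89-fold in Differentiated against Undifferentiated cells, while Loxl2 rose 4.49-fold from a very low level. Of the hydroxylases, Plod2 rose 3.38-fold and Plod3 rose 1.38-fold. Plod1 was 1.08-fold higher, which did not pass the test. Of 24402 genes tested with edgeR's quasi-likelihood test, 23% were higher and 23.2% lower at a Benjamini-Hochberg adjusted p under 0.05. Of the 8 members, 3 were higher and 4 were lower at that threshold. DEGs (differentially expressed genes, with an adjusted p under 0.05 and a change of at least 2-fold) made up 10.4% of all genes on the higher side and 11.4% on the lower side, and 2 and 4 of the members were DEGs in these directions. These p-values and SEs rest on a fit to every gene with at least 1 count. With edgeR's filter on low expression, the log2 fold changes of Lox, Loxl1 and Loxl3 were −4.57, −1.54 and −2.84, and their edgeR adjusted p rose to 5.43e-14, 6.97e-12 and 1.83e-12.

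The second comparison asked what the cocktail did when lysine was lacking. In Lysfree against Undifferentiated cells, Loxl3 fell 4.47-fold, Lox 2.54-fold and Loxl1 2.20-fold. Loxl2 fell 2.58-fold, at only 4 to 21 counts per library. Loxl4 rose 1.39-fold and Plod2 rose 1.57-fold. Plod1 and Plod3 did not pass the test, with changes of 1.10-fold lower and 1.12-fold higher. Of 23994 genes, 18% were higher and 17.1% lower at an adjusted p under 0.05, against 2 and 4 of the members. DEGs made up 5.52% of genes on the higher side and 8.76% on the lower side, against 0 and 4 of the members.

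The third comparison held the cocktail constant and asked what the lack of lysine changed. Lox was 9.28-fold higher and Loxl4 7.09-fold higher in Lysfree than in Differentiated cells, Loxl3 rose 1.59-fold and Loxl1 1.31-fold. Loxl2 fell 11.7-fold, Plod2 2.18-fold, Plod3 1.24-fold and Plod1 1.19-fold. Of 24130 genes, 19.7% were higher and 18.8% lower at an adjusted p under 0.05, against 4 and 4 of the members. DEGs made up 8.14% on the higher side and 10.5% on the lower side, against 2 and 2 of the members. These comparisons share libraries, so each member's values are given side by side and no relation between the comparisons was tested.

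**Figure D1:**
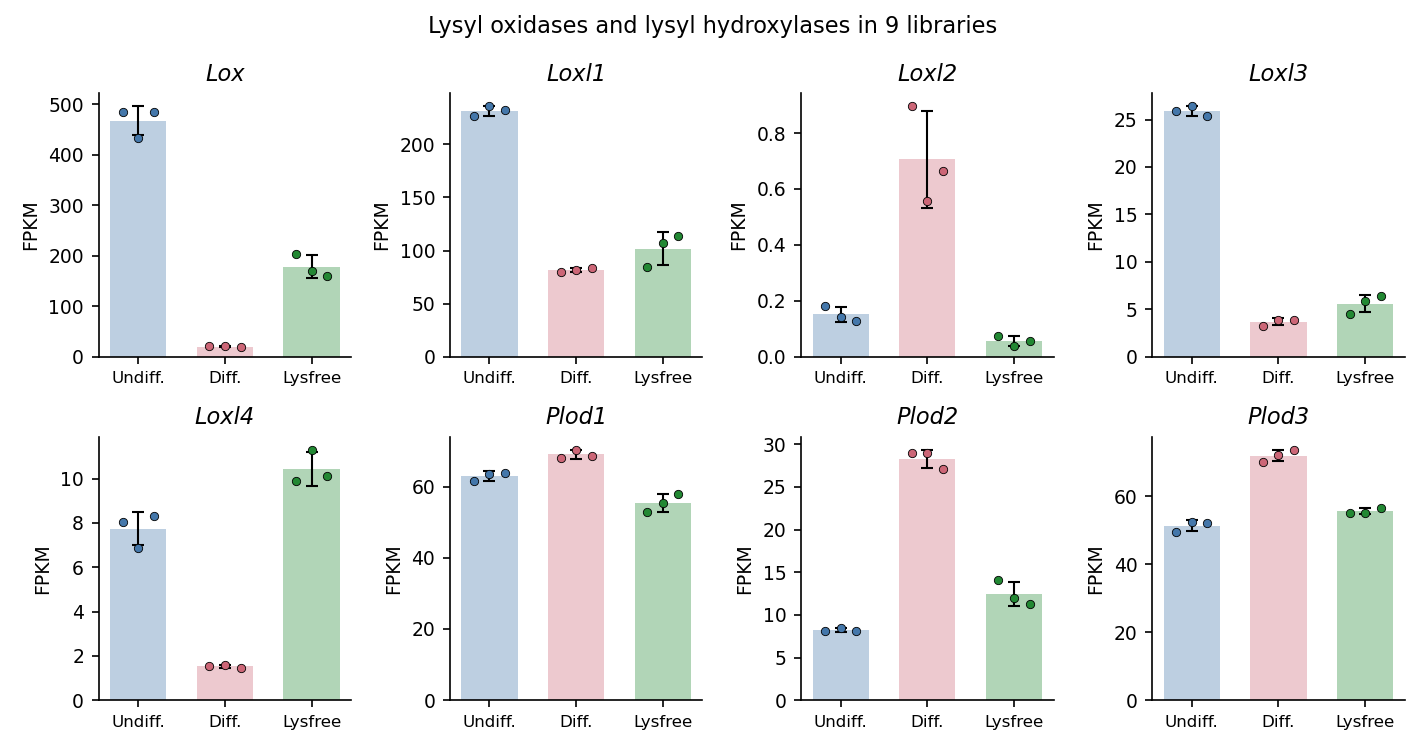
FPKM (vertical axis, linear from 0) of the 8 genes in 3 Undifferentiated (Undiff.), 3 Differentiated (Diff.) and 3 Lysfree libraries, with points for libraries, bars for means and error bars for the SD. Lox ranged from 434 to 485 in Undifferentiated, 18.6 to 20.8 in Differentiated and 161 to 204 in Lysfree libraries, and the groups did not overlap for any of the 8 genes, as for 50.6% of all genes tested in Differentiated vs Undifferentiated, 43.1% in Lysfree vs Undifferentiated and 46.2% in Lysfree vs Differentiated.

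Lox, the founding lysyl oxidase and the main cross-linking enzyme of fibrillar collagen and elastin, was the most abundant member in Undifferentiated cells. Its levels were 484, 434 and 485 FPKM in the 3 Undifferentiated libraries, 20.8, 20.7 and 18.6 FPKM in the Differentiated libraries and 204, 169 and 161 FPKM in the Lysfree libraries (FPKM is the fragment count divided by gene length and by a scaled library total). All Lysfree libraries lay above all Differentiated and below all Undifferentiated libraries. The log2 fold change was −4.57 (SE 0.05) in Differentiated vs Undifferentiated, where the adjusted p was returned as 0 by edgeR because it was too small to be stored. It was −1.35 (SE 0.10, edgeR adjusted p 1.81e-13) in Lysfree vs Undifferentiated and 3.21 (SE 0.10, edgeR adjusted p 5.19e-16) in Lysfree vs Differentiated. Among genes averaging 1 CPM or more (CPM is the count divided by the library total after TMM scaling), the fall of Lox on differentiation ranked 29th of 12776, and its rise in Lysfree over Differentiated cells ranked 106th of 12576. By mean FPKM, Lox stood at position 81 among all genes in Undifferentiated, 2908 in Differentiated and 214 in Lysfree cells. The gene lies on chromosome 18, minus strand, from 52516069 to 52529867.

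Loxl1, which binds to elastic fibre assemblies and cross-links elastin, fell in both cocktail-treated groups. It measured 227, 236 and 232 FPKM in Undifferentiated, 79.9, 81.3 and 83.3 FPKM in Differentiated and 84.6, 107 and 114 FPKM in Lysfree libraries. The lowest Lysfree library was only just above the highest Differentiated library. It fell with a log2 fold change of −1.53 (SE 0.05, edgeR adjusted p 2.62e-197) in Differentiated and −1.14 (SE 0.10, edgeR adjusted p 6.61e-11) in Lysfree against Undifferentiated cells. Lysfree exceeded Differentiated by 0.39 (SE 0.10, edgeR adjusted p 0.00376) on the log2 scale. This call was lost in 3 of 16 alternatives, among them limma on log2(FPKM + 1), with an adjusted p of 0.0989. Loxl1 lies at 58287738 to 58313186 on the minus strand of chromosome 9.

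Loxl2, a lysyl oxidase with scavenger receptor domains that cross-links basement membrane collagen IV, was low in every group. It was close to the detection limit in Undifferentiated and Lysfree libraries. It had 21, 17 and 11 counts in Undifferentiated, 75, 56 and 58 in Differentiated and 7, 4 and 6 in Lysfree libraries. As levels these were 0.182, 0.143 and 0.127 FPKM, 0.897, 0.556 and 0.664 FPKM, and 0.0737, 0.0388 and 0.0572 FPKM. The 3 groups did not overlap, with Differentiated highest and Lysfree lowest. On the log2 scale Loxl2 changed by 2.17 (SE 0.28, edgeR adjusted p 1.05e-13) in Differentiated vs Undifferentiated and −3.55 (SE 0.35, edgeR adjusted p 3.99e-08) in Lysfree vs Differentiated. In Lysfree vs Undifferentiated it was −1.37 (SE 0.51, edgeR adjusted p 0.0361), a call that was lost in 8 of 15 alternatives, including DESeq2 (adjusted p 0.0686). The edgeR adjusted p was 0.153 without Undifferentiated 1, 0.0656 without Undifferentiated 2, 0.0514 without Undifferentiated 3, 0.126 without Lysfree 2 and 0.07 without Lysfree 3. Its direction held in all 15. Loxl2 lies at 69609068 to 69695834 on the plus strand of chromosome 14, and a model annotated antisense to it, Gm27177, had 0 to 3 counts.

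Loxl3, a scavenger receptor type lysyl oxidase needed for palate and spinal cartilage, fell in both cocktail-treated groups. Its levels were 25.9, 26.4 and 25.4 FPKM in Undifferentiated, 3.27, 3.87 and 3.90 FPKM in Differentiated and 4.55, 5.88 and 6.36 FPKM in Lysfree libraries. Every Lysfree library was above every Differentiated library, by less than the distance of either to the Undifferentiated libraries. Its log2 fold change was −2.84 (SE 0.07, edgeR adjusted p 4.24e-313) in Differentiated and −2.16 (SE 0.12, edgeR adjusted p 3.64e-16) in Lysfree against Undifferentiated cells. Lysfree vs Differentiated gave 0.67 (SE 0.14, edgeR adjusted p 5.59e-04). Loxl3 lies at 83034173 to 83052562 on the plus strand of chromosome 6. It shares 1297 bases with Htra2 on the opposite strand, which had 788 to 1368 counts, and since the strand setting of the counting is not given in the sources used here, reads of the overlap could belong to either gene.

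Loxl4, the last of the scavenger receptor type lysyl oxidases, fell on differentiation and was highest in Lysfree cells. It measured 8.02, 6.88 and 8.33 FPKM in Undifferentiated, 1.53, 1.61 and 1.47 FPKM in Differentiated and 9.87, 11.3 and 10.1 FPKM in Lysfree libraries. It was the only lysyl oxidase with all Lysfree libraries above all Undifferentiated libraries. On the log2 scale Loxl4 changed by −2.35 (SE 0.11, edgeR adjusted p 3.4e-101) in Differentiated vs Undifferentiated, 0.48 (SE 0.12, edgeR adjusted p 0.00154) in Lysfree vs Undifferentiated and 2.83 (SE 0.13, edgeR adjusted p 2.12e-13) in Lysfree vs Differentiated. The last of these ranked 155th among rises of 12576 genes. Thus Loxl2 and Loxl4, whose copper sites had 31 of 33 bases in common, had opposite signs in all 3 comparisons. For Lysfree vs Undifferentiated this rests on the low counts of Loxl2, whose call there was lost in 8 of 15 alternatives. Loxl4 lies at 42593982 to 42612813 on the minus strand of chromosome 19.

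**Figure D2:**
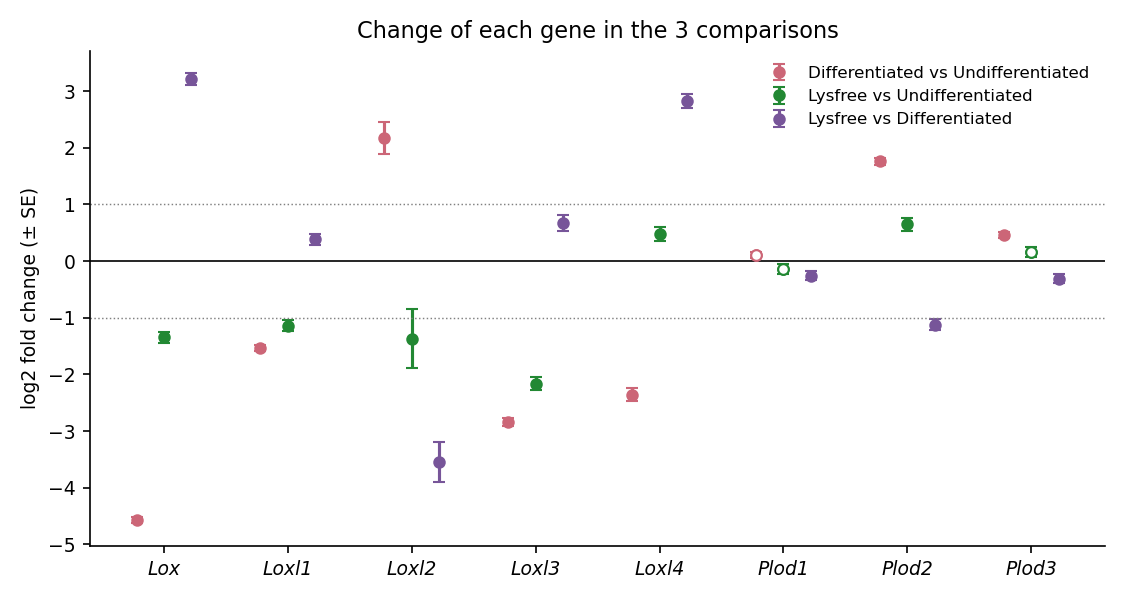
The log2 fold change (vertical axis) of each gene in the 3 comparisons, with error bars for the SE, open points for adjusted p of 0.05 or more, and dotted lines at a 2-fold change. Lox spans from −4.57 in Differentiated vs Undifferentiated to 3.21 in Lysfree vs Differentiated, and the open points are Plod1 in 2 comparisons and Plod3 in Lysfree vs Undifferentiated.

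Plod1, which hydroxylates lysines in the triple helical part of collagen, was the steadiest member. Its levels were 61.5, 63.6 and 63.9 FPKM in Undifferentiated, 68.1, 70.4 and 68.6 FPKM in Differentiated and 52.7, 55.4 and 57.8 FPKM in Lysfree libraries. The groups did not overlap, but the gaps were small. Differentiated vs Undifferentiated gave a log2 fold change of 0.11 (SE 0.05, edgeR adjusted p 0.0758), with a 95% interval of 0.01 to 0.20, and Lysfree vs Undifferentiated gave −0.14 (SE 0.09, edgeR adjusted p 0.284), with an interval of −0.32 to 0.04. Neither passed the test, although the first passed in 5 alternatives, among them the fit without Undifferentiated 2 (adjusted p 0.0171), and the second in 3, among them the fit without Lysfree 1 (adjusted p 0.0443). Lysfree vs Differentiated gave −0.25 (SE 0.08, edgeR adjusted p 0.0155), a call lost without Differentiated 1 (adjusted p 0.0626) or Differentiated 2 (adjusted p 0.0823) and with library sizes alone (adjusted p 0.0898). Plod1 lies at 147909753 to 147936767 on the minus strand of chromosome 4.

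Plod2, which hydroxylates lysines in the telopeptides at the ends of collagen chains and so sets the type of cross-link, rose most of the hydroxylases on differentiation. It measured 8.05, 8.44 and 8.14 FPKM in Undifferentiated, 28.9, 28.9 and 27.1 FPKM in Differentiated and 14.1, 12.0 and 11.3 FPKM in Lysfree libraries. Lysfree libraries lay between the other groups without touching either. On the log2 scale Plod2 changed by 1.76 (SE 0.06, edgeR adjusted p 2.24e-167) in Differentiated vs Undifferentiated, 0.65 (SE 0.11, edgeR adjusted p 1.19e-05) in Lysfree vs Undifferentiated and −1.12 (SE 0.10, edgeR adjusted p 5.27e-09) in Lysfree vs Differentiated. Plod2 lies at 92542223 to 92608428 on the plus strand of chromosome 9. The annotation holds 2 complete coding transcripts of Plod2, and the gene counts do not separate them. The unclassified model Gm38391, on the opposite strand within Plod2, had 6 to 24 counts.

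Plod3, which can hydroxylate lysine and also add galactose and glucose to hydroxylysine, rose modestly on differentiation. It measured 49.6, 52.3 and 52.2 FPKM in Undifferentiated, 70.2, 72.2 and 73.6 FPKM in Differentiated and 55.2, 55.2 and 56.5 FPKM in Lysfree libraries. Lysfree libraries lay close to the Undifferentiated libraries. On the log2 scale Plod3 changed by 0.46 (SE 0.05, edgeR adjusted p 1.5e-17) in Differentiated vs Undifferentiated and −0.31 (SE 0.08, edgeR adjusted p 0.00411) in Lysfree vs Differentiated. Lysfree vs Undifferentiated gave 0.16 (SE 0.09, edgeR adjusted p 0.21, 95% interval −0.02 to 0.35), which did not pass with all libraries and passed without Lysfree 1 (adjusted p 0.0367). Plod3 lies at 136987019 to 136996648 on the plus strand of chromosome 5. It shares 1003 bases with Znhit1 on the opposite strand, which had 500 to 980 counts, so some reads could belong to either gene.

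Leaving out Lysfree 1 moved no member's log2 fold change by more than 0.25. Without it, Lox was −1.48 in Lysfree vs Undifferentiated and 3.09 in Lysfree vs Differentiated, Loxl4 was 0.49 and 2.84, and Plod2 was 0.53 and −1.23. The members with an adjusted p under 0.05 in Lysfree vs Undifferentiated went from 6 to 8, as Plod1 (adjusted p 0.0443) and Plod3 passed. Their log2 fold changes did not grow, with −0.13 against −0.14 for Plod1 and 0.14 against 0.16 for Plod3. The edgeR adjusted p of Lox also fell there, from 1.81e-13 to 6.13e-192. All 8 still passed in Lysfree vs Differentiated. The 12 Lysfree sums, shares and ratios given next were also computed without Lysfree 1, after seeing the data. The share of Lox in the oxidase sum was then 56.4%, the ratio of Plod2 to Plod1 was 0.206 and the oxidases per 100 FPKM of collagen were 24.1 FPKM. Leaving out 1 of 3 libraries cannot move their mean by 1 SD, so these moves were not judged against the SD. The same 5 members lay between the other groups, with Loxl1 at 71% and Loxl3 at 74% of the log2 distance.

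The Lysfree level lay between the levels of the other groups for 5 of the 8 members, namely Lox, Loxl1, Loxl3, Plod2 and Plod3. Over 12656 genes with a mean of at least 1 CPM by unscaled library totals, 38.6% lay between. Loxl1 and Loxl3 in Lysfree cells had covered 78.7% and 78.5% of the log2 distance from Undifferentiated to Differentiated. Lox, Plod2 and Plod3 had covered 30.7%, 33.7% and 23.6%. Loxl2, Loxl4 and Plod1 lay outside the interval on the Undifferentiated side, Loxl2 and Plod1 below and Loxl4 above the Undifferentiated mean. These are positions of means, with no test.

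Levels per length also gave an order of members in each group. In Undifferentiated cells it ran Lox, Loxl1, Plod1, Plod3, Loxl3, Plod2, Loxl4 and Loxl2, and Plod2 and Loxl4 overlapped between libraries. In Differentiated cells it ran Loxl1, Plod3, Plod1, Plod2, Lox, Loxl3, Loxl4 and Loxl2, with Plod3 and Plod1 overlapping. In Lysfree cells it ran Lox, Loxl1, Plod3, Plod1, Plod2, Loxl4, Loxl3 and Loxl2, with overlap between Plod3 and Plod1 and between Plod2 and Loxl4. Lox thus led in Undifferentiated and Lysfree cells and stood below Plod2 in Differentiated cells.

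Summed over the family, lysyl oxidase transcript was 733 ± 25.8 FPKM (SD, n = 3) in Undifferentiated, 108 ± 0.906 FPKM in Differentiated and 296 ± 6.47 FPKM in Lysfree cells. Lox made up 63.8% ± 1.78 of this sum in Undifferentiated, 18.6% ± 1.23 in Differentiated and 60.1% ± 6.41 in Lysfree cells. Loxl1 made up 31.6% ± 1.66, 75.8% ± 1.15 and 34.5% ± 5.86 in the same order, so it was the leading oxidase of Differentiated cells. Without Lox, the remaining oxidases summed to 265 ± 4.22, 87.5 ± 1.86 and 118 ± 16.6 FPKM. Much of the difference between Lysfree and Differentiated cells in the family sum was therefore carried by Lox. The hydroxylases summed to 123 ± 2.98 FPKM in Undifferentiated, 169 ± 2.20 FPKM in Differentiated and 123 ± 1.94 FPKM in Lysfree cells, the Undifferentiated and Lysfree libraries overlapping. Plod2 held 6.70% ± 0.127, 16.7% ± 0.665 and 10.1% ± 1.30 of the hydroxylase sum.

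**Figure D3:**
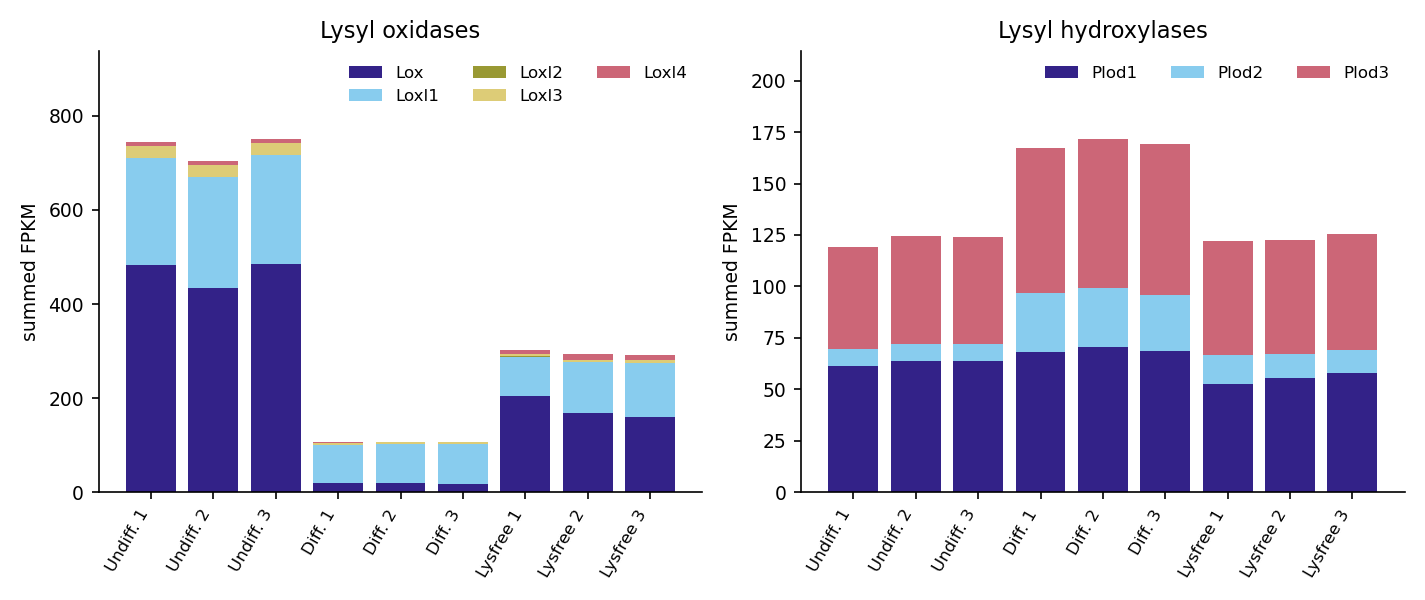
Summed FPKM (vertical axis, linear from 0) of the lysyl oxidases (left) and lysyl hydroxylases (right) in each of the 9 libraries, stacked by gene. The oxidase sum falls from 703 to 751 FPKM in Undifferentiated to 106 to 108 FPKM in Differentiated libraries and stands at 291 to 303 FPKM in Lysfree libraries, while the hydroxylase sum stays between 119 and 172 FPKM.

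Ratios between the enzymes shifted accordingly. The oxidase sum was 5.98 ± 0.302 times the hydroxylase sum in Undifferentiated, 0.635 ± 0.00434 times in Differentiated and 2.40 ± 0.0848 times in Lysfree cells. The ratio of Lox to Loxl1 was 2.02 ± 0.158, 0.246 ± 0.0198 and 1.80 ± 0.536, and in Lysfree libraries it ran from 1.41 to 2.41, the highest being Lysfree 1. Plod2 relative to Plod1 was 0.130 ± 0.00266, 0.410 ± 0.0149 and 0.226 ± 0.0366, and Plod3 relative to Plod1 was 0.816 ± 0.00783, 1.04 ± 0.0266 and 1.01 ± 0.0350. The enzymes were also set against the summed transcripts of the fibrillar collagen chains Col1a1, Col1a2 and Col3a1. Per 100 FPKM of this sum, the oxidases stood at 16.2 ± 0.422 FPKM in Undifferentiated, 11.9 ± 0.0857 in Differentiated and 24.6 ± 0.773 in Lysfree cells. The hydroxylases stood at 2.71 ± 0.174, 18.7 ± 0.0833 and 10.2 ± 0.0455 FPKM on the same scale. Relative to these chains, oxidase transcript was thus highest in Lysfree cells and hydroxylase transcript in Differentiated cells. Other collagen chains are outside this sum and did not all move with it. Of the 15 substrates described below, 6 were higher and 8 lower in Differentiated vs Undifferentiated. Col6a1, on the higher side, measured 634, 889 and 370 FPKM in the order above. A ratio to all chains was not computed, so the ranking holds for this sum only. The ratios are of FPKM across genes, given as descriptions with no test.

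**Figure D4:**
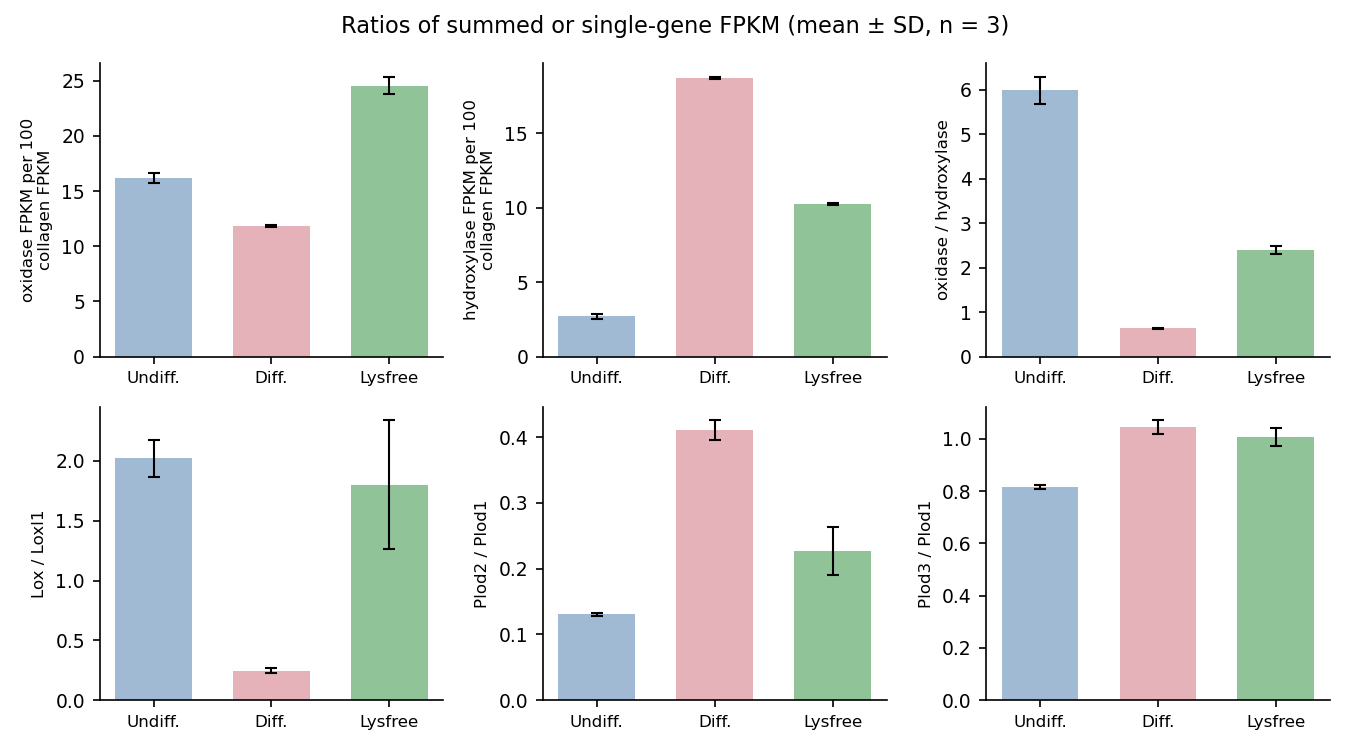
Ratios of FPKM (vertical axes, linear from 0) in Undifferentiated (Undiff.), Differentiated (Diff.) and Lysfree libraries, bars for means and error bars for the SD, n = 3. Collagen here is the sum of Col1a1, Col1a2 and Col3a1 alone. Per 100 FPKM of this sum, oxidase is highest in Lysfree cells (24.6) and hydroxylase in Differentiated cells (18.7).

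The substrates of these enzymes were mostly lower in Lysfree than in Undifferentiated cells and moved in both directions on differentiation. Of 15 collagen chains and elastin listed as substrates, 6 were higher and 8 lower in Differentiated vs Undifferentiated (median log2 fold change −0.64, against 0.02 over all genes tested). In Lysfree vs Undifferentiated, 0 were higher and 13 lower (median −1.23, against −0.02), and in Lysfree vs Differentiated 4 were higher and 7 lower (median −0.38, against −0.06). These medians over all genes, with the shares of genes passing in each comparison, are the background for the other lists as well. Col1a1, a chain of collagen I, was 1887 ± 109 FPKM in Undifferentiated, 362 ± 8.38 FPKM in Differentiated and 327 ± 27.8 FPKM in Lysfree cells, and Lysfree vs Differentiated did not pass (−0.08, SE 0.08, edgeR adjusted p 0.451). Col1a2, its partner chain, fell with log2 fold changes of −2.71 in Differentiated and −1.66 in Lysfree cells against Undifferentiated cells, and Col3a1, the chain of collagen III, with −2.01 and −1.45. Eln, elastin, fell with log2 fold changes of −2.01 in Differentiated and −4.69 in Lysfree cells against Undifferentiated cells. It was lower in Lysfree than in Differentiated cells (−2.68, SE 0.19, edgeR adjusted p 2.03e-10), so it moved opposite to Lox in that comparison. Col6a3, a chain of the beaded filament collagen VI, rose by 1.04 on the log2 scale in Differentiated and fell by 1.43 in Lysfree cells against Undifferentiated cells. Col11a1, which helps to start fibrils, fell with −3.48 and −2.29.

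The chaperones and processing enzymes around the pathway were mostly lower after differentiation. Of 8 genes on the chaperone list, 1 was higher and 6 lower in Differentiated vs Undifferentiated (median −0.63). In Lysfree vs Undifferentiated 0 were higher and 4 lower (median −0.43), and in Lysfree vs Differentiated 2 and 3 (median −0.08). The list joins procollagen chaperones with Sec23a and Mia3, which act in export from the endoplasmic reticulum, and the ion channel Tmem38b. Sec23a was the gene higher in Differentiated vs Undifferentiated (0.27), and it was lower in the comparisons with Lysfree cells (−0.63 and −0.91). Mia3 was lower in Differentiated vs Undifferentiated (−0.74) and higher in Lysfree vs Differentiated (0.53). Tmem38b did not pass in any comparison. Fkbp10, which works with Plod2 in telopeptide hydroxylation, fell by 0.29 (SE 0.05) on differentiation while Plod2 rose, and its log2 fold change of −0.22 (SE 0.10, edgeR adjusted p 0.0675) in Lysfree vs Undifferentiated did not pass. Serpinh1, the collagen chaperone Hsp47, measured 875 ± 15.2 FPKM in Undifferentiated, 549 ± 11.1 FPKM in Differentiated and 875 ± 129 FPKM in Lysfree cells. Fkbp14, another prolyl isomerase of the endoplasmic reticulum, fell with log2 fold changes of −1.45 in Differentiated and −2.46 in Lysfree against Undifferentiated cells. Of the procollagen processing genes, 6 of 8 had counts, of which 1 was higher and 4 lower in Differentiated vs Undifferentiated (median −1.70), 1 and 3 in Lysfree vs Undifferentiated (median −0.65) and 3 and 0 in Lysfree vs Differentiated (median 1.07). Bmp1, the protease that removes the propeptide of Lox as well as that of procollagen, fell from 56.4 ± 0.340 FPKM to 16.9 ± 0.750 FPKM in Differentiated and 18.1 ± 1.87 FPKM in Lysfree cells. Lox rose in Lysfree over Differentiated cells, whereas Bmp1 did not pass there (0.16, SE 0.10, edgeR adjusted p 0.211). Adamts2, which removes the amino propeptide of procollagen, fell with −3.28 and −1.62 against Undifferentiated cells and rose by 1.65 in Lysfree over Differentiated cells. Pcolce2, an enhancer of procollagen C-proteinase, rose by 1.99 in Differentiated and 2.27 in Lysfree cells on the log2 scale, from a low Undifferentiated level of 0.235 ± 0.0872 FPKM. Pcolce, listed beside it at 544 ± 22.3 FPKM in Undifferentiated cells, fell with −2.39 in Differentiated and −1.06 in Lysfree cells.

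Lysyl oxidases need copper and matrix scaffolds. Of 11 genes listed for these roles, 1 was higher and 7 lower in Differentiated vs Undifferentiated (median −1.33). In Lysfree vs Undifferentiated 4 were higher and 7 lower (median −0.79), and in Lysfree vs Differentiated 6 and 4 (median 0.31). The genes lower against Undifferentiated cells were matrix genes. Of the copper genes, Slc31a1 rose by 0.78 on the log2 scale on differentiation, while Atp7a and Atox1 did not pass. In Lysfree vs Undifferentiated, Slc31a1, Atp7a and Atox1 rose by 0.63, 0.56 and 0.47. In Lysfree vs Differentiated, Atp7a and Atox1 rose by 0.71 and 0.31, and Slc31a1 did not pass. Fn1, fibronectin, which can hold Lox and Bmp1 in the matrix, measured 380 ± 44.5 FPKM in Undifferentiated, 58.6 ± 6.75 FPKM in Differentiated and 719 ± 14.3 FPKM in Lysfree cells. It rose by 3.68 on the log2 scale (SE 0.09, edgeR adjusted p 4.97e-18) in Lysfree over Differentiated cells. Fmod, fibromodulin, which binds collagen and modulates cross-linking by Lox, fell with log2 fold changes of −4.10 in Differentiated and −5.55 in Lysfree cells against Undifferentiated cells.

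The other hydroxylases of collagen moved in both directions. Of 10 prolyl hydroxylation genes, 3 were higher and 5 lower in Differentiated vs Undifferentiated (median −0.69), 1 and 7 in Lysfree vs Undifferentiated (median −0.73) and 2 and 2 in Lysfree vs Differentiated (median −0.14). P4ha2, an alpha subunit of prolyl 4-hydroxylase, rose by 1.14 on the log2 scale in Differentiated and by 0.95 in Lysfree against Undifferentiated cells, as Plod2 did. P4ha3, another alpha subunit, fell with −4.99 and −1.62, and rose by 3.37 (SE 0.22, edgeR adjusted p 3.99e-11) in Lysfree over Differentiated cells. P3h3, a prolyl 3-hydroxylase family member that acts with Plod1 in a lysyl hydroxylation complex, fell with −1.67 and −1.87, while Plod1 did not pass in either comparison. Colgalt1, which adds galactose to hydroxylysine, fell with −0.81 and −0.51 against Undifferentiated cells and rose by 0.29 in Lysfree over Differentiated cells. Its paralogue Colgalt2, the other of the 2 glycosylation genes listed, did not pass in any comparison.

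Hypoxia-inducible genes were described because Plod1, Plod2, Lox and Loxl2 are known in other systems as targets of hypoxia-inducible factors. All 12 listed genes were higher in Differentiated vs Undifferentiated (median 2.42). In Lysfree vs Undifferentiated 9 were higher and 1 lower (median 0.55), and in Lysfree vs Differentiated 0 were higher and 11 lower (median −1.76). Bnip3, a mitophagy receptor, rose by 3.80 on the log2 scale on differentiation, and Ldha, lactate dehydrogenase A, rose by 2.75 on differentiation and by 1.47 in Lysfree against Undifferentiated cells. Car9, a carbonic anhydrase, had log2 fold changes of −2.37 in Lysfree against Undifferentiated and −3.59 against Differentiated cells, both passing the test. Of these 4 members, Plod2 had the sign of the list median in all 3 comparisons, and Loxl2 and Plod1 had it in Differentiated vs Undifferentiated, where Plod1 did not pass, and in Lysfree vs Differentiated. Lox had the opposite sign in all 3. Plod3, which is not one of the 4, also had the sign of the list median in all 3 comparisons, without passing in Lysfree vs Undifferentiated. The 3 comparisons are differences between the same 3 groups, so sharing the sign in all 3 is 1 ordering of the groups. The share of all genes with that ordering was not computed. These counts describe the lists beside the members, and no link between them was tested.

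Lysyl hydroxylases depend on iron and ascorbate, and 6 genes of their transport and of iron storage were listed. Of these, 1 was higher and 4 lower in Differentiated vs Undifferentiated (median −0.52). In Lysfree vs Undifferentiated 3 were higher and 0 lower (median 0.24), and in Lysfree vs Differentiated 4 and 1 (median 0.75). The counts and medians join transport with storage. In the first and last of these comparisons, Tfrc moved opposite to the storage genes Ftl1 and Fth1. The transporters Slc11a2 and Slc23a2 moved with the storage genes, by −0.29 and −0.75 in the first and by 0.57 and 0.94 in the last. Tfrc, the transferrin receptor that brings in iron, rose by 2.54 in Differentiated and by 1.74 in Lysfree cells against Undifferentiated cells. It fell by 0.81 in Lysfree against Differentiated cells. Ftl1, the ferritin light chain, which stores iron, fell by 1.44 on differentiation and rose by 1.75 in Lysfree over Differentiated cells. Fth1, the ferritin heavy chain, fell by 0.94 and rose by 1.01 in the same comparisons.

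**Figure D5:**
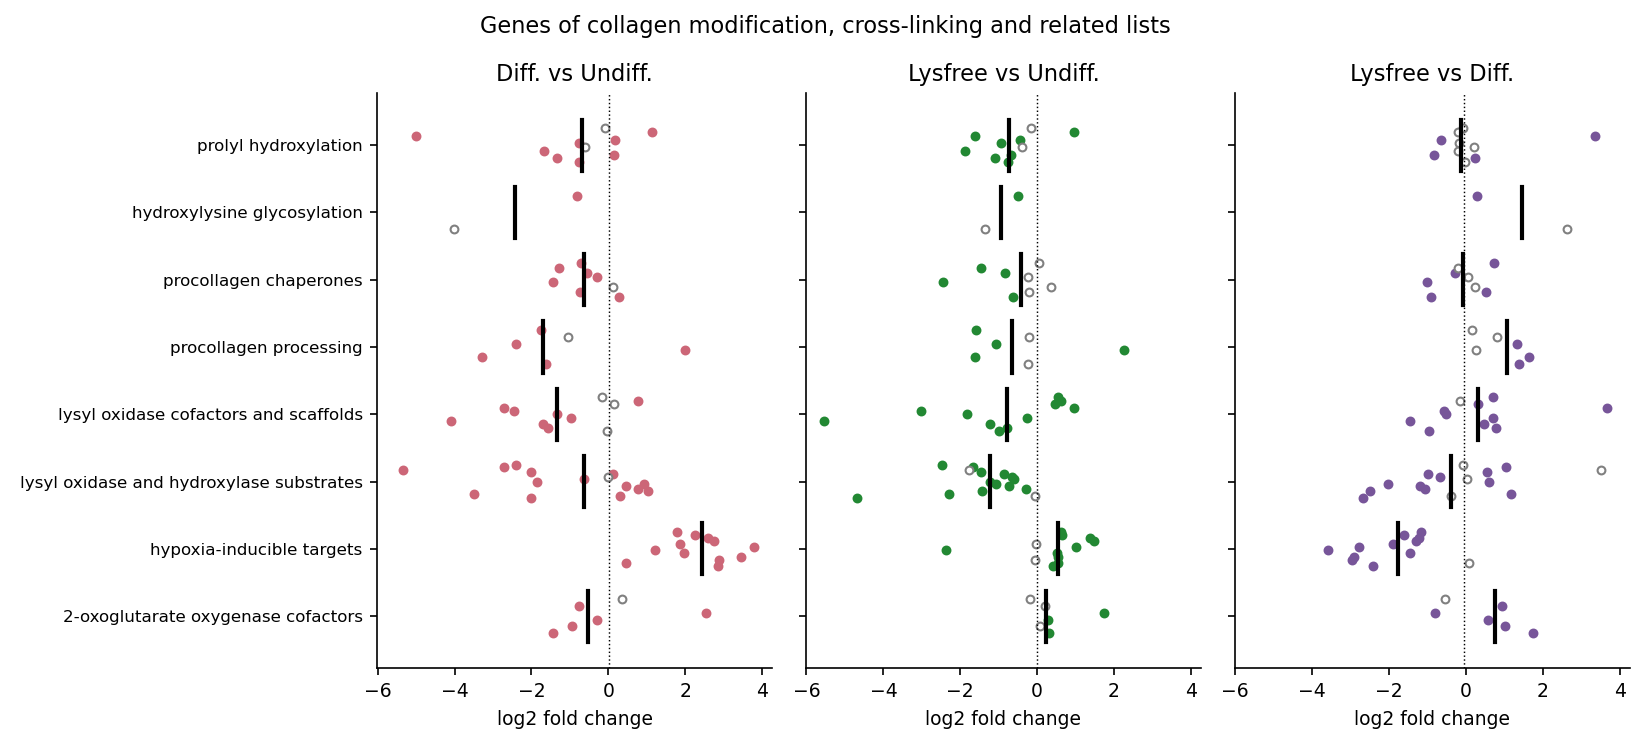
The log2 fold change (horizontal axes) of the genes of 8 lists in the 3 comparisons, with filled points for an adjusted p under 0.05, open points otherwise, black bars for list medians and a dotted line for the median over all genes tested. Hypoxia-inducible targets have a median of 2.42 in Differentiated vs Undifferentiated and −1.76 in Lysfree vs Differentiated, and the substrates have −1.23 in Lysfree vs Undifferentiated.

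The genes with a pattern most like Lox over the 9 libraries, by the root mean square difference of centred log2(CPM + 1) among 12709 genes, were Acta2 (0.165), Il17rd (0.169) and Timp2 (0.293), against a median of 1.93 over all genes. Acta2 went from 57.3 FPKM in Undifferentiated to 2.40 FPKM in Differentiated and 23.6 FPKM in Lysfree cells. Timp2, an inhibitor of matrix metalloproteinases, went from 382 to 24.4 and 219 FPKM, and Il17rd, a membrane receptor, from 5.20 to 0.171 and 2.30 FPKM. The pattern most like Plod1, the hydroxylase with the highest mean over the 9 libraries, was that of Fkbp5 (0.0407), Tom1l2 (0.0489) and 5031439G07Rik (0.0492), against a median of 0.406.

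Windows of 300 bases around the transcription start, most of each lying before it, were matched for 3 of the 8 members in RefSeq (GRCm38.p6), namely Plod1, Plod3 and Loxl4. These windows were searched on both strands for ACGTG and GCGTG, the core letters bound by hypoxia-inducible factors. The Plod1 window held 2 matches, the Plod3 window 4 and the Loxl4 window 1. Of 32851 windows of the same length, 43.8% held at least 1. The window of Loxl4, the lysyl oxidase that fell on differentiation and exceeded its Undifferentiated level in Lysfree cells, is printed from the minus strand at chr19:42612757-42613056 with its match in capitals.
Loxl4 window: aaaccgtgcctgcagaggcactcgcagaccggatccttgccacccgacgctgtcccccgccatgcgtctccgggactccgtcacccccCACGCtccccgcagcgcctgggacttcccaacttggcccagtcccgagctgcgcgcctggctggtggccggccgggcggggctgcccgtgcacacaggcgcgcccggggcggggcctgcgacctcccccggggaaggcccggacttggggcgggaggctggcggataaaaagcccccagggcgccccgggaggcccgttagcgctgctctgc
The AP-1 motif TGANTCA and the glucocorticoid receptor core AGAACA had 0 matches in the 3 windows, against 7.81% and 19% of all windows. A match is a description of the letters and not a bound site.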

How the data were processed

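The 9 libraries of poly A RNA, 3 per group, were assigned to groups from the sample labels. The authors aligned trimmed reads to mm10 and deposited raw read counts per gene. Per the submitters' processing notes, HISAT2 2.0.5 and featureCounts 1.5.0-p3 were used, and the strand setting and annotation version are not given in the sources used here. The authors also deposited FPKM, in which counts are divided by gene length and by a library total that is not the sum of the counts. Relative to count, length and that sum, the deposited FPKM were 0.988 to 0.994 times as high in Undifferentiated, 1.03 to 1.04 in Differentiated and 0.932 to 0.953 in Lysfree libraries, by a scaling not given in the sources used here. This moves levels, sums and positions between groups, but no fold change of a test on counts and no ratio of genes within a library. Relative to TMM-scaled totals the range was 0.966 to 1.01. The members and gene lists were chosen with earlier results of these data known.

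The quasi-likelihood test of edgeR 4.0.16 (R 4.3.3, two-sided, TMM factors) was run on the counts of the 6 libraries of each comparison, for every gene counted at least once in them, with Benjamini-Hochberg adjustment over all genes tested. A gene passed at an adjusted p under 0.05 and was a DEG with a change of at least 2-fold as well. The SE is the size of the log2 fold change divided by the square root of F, and 95% intervals use 1.96 SE. With 3 libraries against 3, an exact permutation test cannot give a p below 0.1. The scripts were tested on simulated data. Family sums, shares and ratios were computed from FPKM, with no test.

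All 8 members are described. Named pathway genes are, for each list and comparison, the DEG with the largest rise and that with the largest fall among genes with a mean of at least 1 CPM and no overlap between groups, besides Col1a1, Col1a2, Col3a1, Eln, Fkbp10, Serpinh1, Bmp1 and Colgalt1, and the 3 genes most like Lox and Plod1. The TGF-beta list is not reported here. Colgalt2, Col6a1, Sec23a, Mia3, Tmem38b, Pcolce, Slc31a1, Atp7a, Atox1, Slc11a2, Slc23a2 and Fth1 were named after their values were seen. Coding sequences came from GENCODE vM21 and were aligned with biopython 1.88 (BLOSUM62). Gene positions are those of the deposited tables and, except for Lox, are the same in GENCODE vM21. Alternatives were DESeq2 1.42.0, limma 3.58.1 on log2(FPKM + 1) and log2(FPKM + 0.1), other scalings and filters, all 9 libraries in 1 fit, a replicate block, a test against a 2-fold change and leaving out each library. The values without Lysfree 1 of lists, sums, shares, ratios and positions were added after seeing the data.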

Additional observations from a re-analysis of the deposited data

How the results depend on the processing

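Over 382 values of the members' log2 fold changes under alternatives, none changed direction. The same side of the threshold was kept in 351, while 22 calls were lost and 9 were gained. The changes in calls concerned Loxl2 and Plod1 in Lysfree vs Undifferentiated, Plod1 and Loxl1 in Lysfree vs Differentiated, Plod1 in Differentiated vs Undifferentiated, Plod3 in Lysfree vs Undifferentiated and, in the test against a 2-fold change alone, further members whose change was near or under 2-fold. That test left 2 DEGs among the members in Lysfree vs Undifferentiated against 4 in the test used in the report and 3 to 4 in the other alternatives, 2 members with an adjusted p under 0.05 there against 6, and 3 in Lysfree vs Differentiated against 8, as follows from its stricter null. Leaving out 1 library at a time left 6 DEGs in Differentiated vs Undifferentiated, 3 to 4 in Lysfree vs Undifferentiated and 4 in Lysfree vs Differentiated, with 7 to 8, 5 to 8 and 7 to 8 members passing. FPKM rescaled by TMM factors moved the log2 ratio of family sums in Lysfree vs Differentiated from −0.46 to −0.40 for the hydroxylases and from 1.46 to 1.51 for the oxidases, both beyond the spread between libraries. In an alternative chosen after seeing the data, the lists were also counted without Lysfree 1. Prolyl hydroxylation genes lower in Lysfree vs Differentiated went from 2 to 5. Genes of the chaperone list lower in Lysfree vs Undifferentiated went from 4 to 6. Genes of the chaperone list and substrates higher in Lysfree vs Undifferentiated each went from 0 to 1. Hypoxia-inducible genes higher in Lysfree vs Differentiated also went from 0 to 1. The other counts for lists moved by at most 1.

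The replicate numbers gave no clear pairing of the libraries. Same-numbered libraries had correlations of deviations from −0.19 to 0.21 over 9 pairs, against −0.25 to 0.21 over 18 other pairs. Of the 9 libraries, 5 correlated best with their own number. With 3 libraries per group, these values cannot exclude a pairing. With the replicate block, Loxl2 in Lysfree vs Undifferentiated gave a log2 fold change of −1.37 with an edgeR adjusted p of 0.0612, and no other member changed its call. Loxl2 could not be tested with at least 10 counts in every library in comparisons with Lysfree libraries, where it had 4 to 7 counts. On the log2(FPKM + 1) scale its change from Undifferentiated to Differentiated was 0.56 against 2.17 from counts, since the added 1 exceeds its level. Depth limits what can be said of Loxl2 and not of the other members, which had at least 100 counts in every library.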
